A study of Drosophila melanogaster with 3 samples.

Results

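The Enhancer of split complex on the right arm of chromosome 3 holds 7 genes for basic helix-loop-helix (bHLH) repressors, and the binding of the zinc finger protein CG6254 along it was read in Drosophila melanogaster embryos. The 7 genes, E(spl)mdelta-HLH, E(spl)mgamma-HLH, E(spl)mbeta-HLH, E(spl)m3-HLH, E(spl)m5-HLH, E(spl)m7-HLH and E(spl)m8-HLH, were chosen by name, with earlier results of these data known, out of 13945 protein-coding genes on the 6 main arms. The region read runs from 5 kb before the first to 5 kb after the last of them, 3R:25992621-26046008 on the dm6 build, and spans 53388 bp. Every sample was chromatin of whole embryos of both sexes, 0 to 14 h old, from a line carrying CG6254 fused to green fluorescent protein (GFP) at its C-terminus, precipitated with an antibody to GFP after sonication to 200 to 800 bp. There were 3 biological replicates of this 1 group, with no other genotype, treatment or time. Cell types were therefore mixed, and an untagged line was not analysed here.

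E(spl) bHLH proteins carry out much of the response to Notch signalling. When Notch is activated, its intracellular part joins the DNA-binding protein Suppressor of Hairless, Su(H), and switches these genes on. Their products recruit the corepressor Groucho and hold back the proneural genes, so that a cell next to a future neuroblast or sensory precursor is kept from the same fate. The complex also holds genes of the Bearded family, whose small proteins inhibit the ubiquitin ligase Neuralized, a gene for a Kazal-type protease inhibitor-like protein (E(spl)m1, listed as Kaz-m1), and groucho (gro) itself.

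The peak summits were read from a list that the authors thresholded by the irreproducible discovery rate (IDR), a measure of how well peaks keep their order between replicates. It held 4426 peaks, which are the strongest of a relaxed list called on the pooled replicates. Relaxed lists of 30000 peaks each, which mix peaks with background by design, were deposited for the pool and for each replicate. Signal is the authors' own value for a peak and its scale is not stated. Peaks were therefore compared by their rank in a list, rank 1 being the strongest. The IDR list was made from these replicates, so its match with a replicate list is no independent check, and the control alignment was shared by all replicates.

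The DNA under the summits nearest the bHLH genes is shown first, because it differs in composition from the promoters beside it. Each sequence is 101 bases of the plus strand of dm6, from the RefSeq copy of the assembly, centred on an IDR summit. Capitals mark TATAAA or its reverse complement, which was the only searched word found in any of the 12 summit windows. The first 4 windows lie 360 bp before E(spl)mdelta-HLH, 464 and 263 bp before E(spl)m3-HLH and 300 bp before E(spl)m7-HLH, and the last lies in an intron of gro.
E(spl)mdelta-HLH, 3R:25997211-25997311: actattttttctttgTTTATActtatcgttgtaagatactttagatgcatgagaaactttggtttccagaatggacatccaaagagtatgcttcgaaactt
E(spl)m3-HLH distal, 3R:26021309-26021409: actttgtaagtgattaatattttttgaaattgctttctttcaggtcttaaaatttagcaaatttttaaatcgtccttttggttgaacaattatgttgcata
E(spl)m3-HLH proximal, 3R:26021510-26021610: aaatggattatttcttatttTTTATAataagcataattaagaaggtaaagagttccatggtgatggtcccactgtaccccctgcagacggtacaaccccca
E(spl)m7-HLH, 3R:26036688-26036788: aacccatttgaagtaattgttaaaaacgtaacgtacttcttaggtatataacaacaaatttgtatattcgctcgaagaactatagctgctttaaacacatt
gro intron, 3R:26042447-26042547: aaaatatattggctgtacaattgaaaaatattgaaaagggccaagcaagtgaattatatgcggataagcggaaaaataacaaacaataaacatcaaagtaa

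For contrast, the 250 bases just before the start site (TSS) of E(spl)m7-HLH, which had the strongest summit of the complex, and of E(spl)m8-HLH, which had no IDR summit at its promoter, are given on the strand of the gene. Capitals mark words known from Notch-regulated promoters: GTGGGAA and its variant GTGAGAA, which Su(H) binds, the E box CAGCTG and the longer E box GCAGGTG, bound by proneural proteins and their partner Daughterless, the E box CACGTG, which E(spl) repressors can bind, and the TATA word TATAAA, on either strand.
E(spl)m7-HLH upstream, 3R:26036788-26037037: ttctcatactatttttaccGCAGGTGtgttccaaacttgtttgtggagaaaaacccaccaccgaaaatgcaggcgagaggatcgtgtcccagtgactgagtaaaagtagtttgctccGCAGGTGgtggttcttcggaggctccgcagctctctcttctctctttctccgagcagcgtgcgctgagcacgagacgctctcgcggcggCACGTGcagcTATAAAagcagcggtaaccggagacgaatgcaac
E(spl)m8-HLH upstream, 3R:26039990-26040239: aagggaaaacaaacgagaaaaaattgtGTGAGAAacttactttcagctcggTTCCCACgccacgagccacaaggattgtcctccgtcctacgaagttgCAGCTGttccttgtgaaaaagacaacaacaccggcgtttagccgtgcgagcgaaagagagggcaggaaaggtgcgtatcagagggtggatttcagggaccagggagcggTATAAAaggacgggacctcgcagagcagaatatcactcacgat
The E(spl)m7-HLH summit window ends where its upstream sequence begins. By this choice of stretch, any word marked in the upstream sequence lies on the gene side of the summit.

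The 7 bHLH genes fell into 3 with an IDR summit within 500 bp of their TSS (E(spl)mdelta-HLH, E(spl)m3-HLH and E(spl)m7-HLH) and 4 without. That is 42.9% of the 7, against 14.8% of all protein-coding genes. The exact 95% binomial interval, 9.90 to 81.6%, covers counting error only and includes that share. It takes genes as independent draws, whereas these are neighbours chosen by name, so it is no test. Taking the 4426 strongest peaks of each replicate in place of the IDR list gave the same 3 genes each time, where the shares of all genes were 16.4%, 16.0% and 12.6% in replicates 1, 2 and 3. Every IDR summit at these 3 genes lay upstream of the gene, and none closer than 263 bp. With a window of 1000 bp the same 3 genes were found against 17.8% of all genes. With a window of 200 bp, none of the 7 was found against 9.91% of all genes, so the count turns on a window that reaches past the core promoter.

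**Figure D1:**
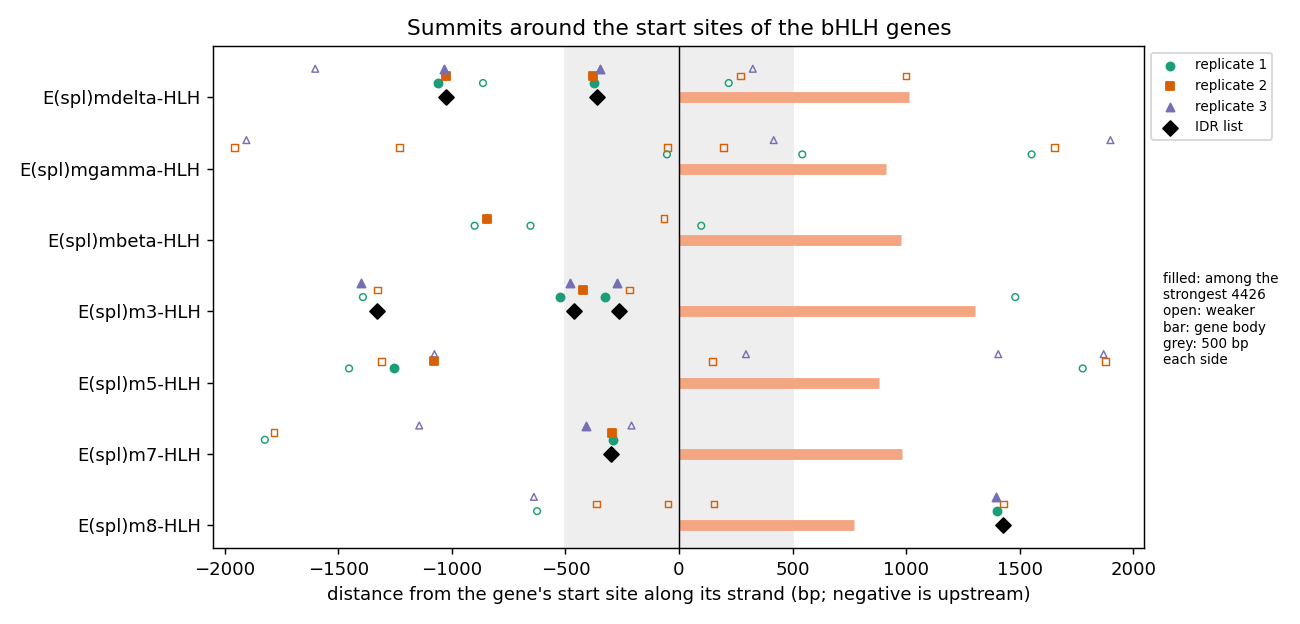
Summits within 2000 bp of the start site of each bHLH gene. The horizontal axis gives the distance along the strand of the gene in bp, black diamonds stand for IDR summits, filled coloured symbols for replicate summits among the strongest 4426, open ones for weaker summits, and bars for gene bodies. IDR summits at E(spl)mdelta-HLH, E(spl)m3-HLH and E(spl)m7-HLH within 500 bp lie upstream between 263 and 464 bp, further ones lie 1024 bp before E(spl)mdelta-HLH and 1332 bp before E(spl)m3-HLH, and no IDR summit lies in the body of a bHLH gene.

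E(spl)m7-HLH (FBgn0002633, 3R:26037038-26038019, plus strand), one of the members expressed in proneural clusters, had the strongest summit of the complex. The IDR peak at 3R:26036616-26036821 had its summit in intergenic DNA 300 bp before the TSS, with signal 812.532 and rank 228. In replicate 1 the signal was 203 at rank 242, in replicate 2 it was 289 at rank 255, and in replicate 3 it was 350 at rank 186. The ranks of the replicates differed by 1.37 times at most, the smallest spread among the 12 IDR summits of the region. Replicate 3 placed its summit 409 bp before the TSS, whereas replicates 1 and 2 placed it at 289 and 294 bp. A second, weak summit of replicate 3 lay 209 bp before the TSS at rank 6561.

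E(spl)m3-HLH (FBgn0002609, 3R:26021823-26023127, plus strand) was the only one of the 7 with more than 1 IDR summit within 500 bp. The distal summit, 464 bp before the TSS, had signal 578.45 and rank 429, and the proximal one, 263 bp before it, had signal 348 and rank 1141. Their intervals, 3R:26021151-26021566 and 3R:26021420-26021592, overlap, so the pair may share fragments. The distal summit ranked 858, 549 and 260 in replicates 1, 2 and 3. For the proximal summit, replicate 1 had rank 2485 and replicate 3 had rank 810. Replicate 2 had a strong summit 423 bp before the TSS, which lay within 200 bp of both, and its own summit closer to the gene, at 218 bp, ranked 6679. A further IDR summit lay 1332 bp before the TSS in an exon of the non-coding RNA gene lncRNA:CR43644, with signal 183 and rank 3180. It was the least even of the region, with ranks 17779, 5513 and 1422 in replicates 1, 2 and 3. The distal summit also lies 283 bp before the start of lncRNA:CR43644, which runs the other way from a TSS 747 bp from that of E(spl)m3-HLH, so the data do not assign it to either gene.

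E(spl)mdelta-HLH (FBgn0002734, 3R:25997621-25998633, plus strand), whose reporter marks photoreceptor R4 in the eye disc, had its IDR summit 360 bp before the TSS, in the peak 3R:25997231-25997362. The signal was 465 and the rank 671, with replicate ranks of 504, 903 and 634. The uncharacterised gene CG43116 starts 625 bp away on the other strand, and the summit lies nearer to that start, at 265 bp. Another IDR summit lay 1024 bp before E(spl)mdelta-HLH, in an intron of CG43116, with signal 527 and rank 521. It ranked 529, 473 and 707 in the replicates. Both were thus strong in every replicate, and neither can be assigned to one of the 2 divergent genes from these lists.

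The other 4 bHLH genes had weak summits or none within 500 bp. E(spl)mgamma-HLH (FBgn0002735), used as a Notch reporter in neuroblasts, had none in the pooled list and ranks of 21352, 10404 and 11040 in replicates 1, 2 and 3. At E(spl)mbeta-HLH (FBgn0002733), known from wing vein patterning, the pooled list had a summit 66 bp before the TSS at rank 8167. Replicate 1 had rank 4615, replicate 2 had rank 7405 and replicate 3 listed no summit there. Replicate 2 had a stronger summit 847 bp before E(spl)mbeta-HLH, at rank 3980, and the pooled list had one at 848 bp, at rank 8098. Replicate 1 had only weak ones near there, at 654 and 900 bp with ranks 16346 and 26765. Replicate 3 listed none within 2000 bp. For E(spl)m8-HLH (FBgn0000591), the gene altered in the E(spl)D allele, the pooled rank was 26397, replicate 2 had rank 24154 and replicates 1 and 3 listed none. Within 500 bp, the ranks at these 3 genes all lay below 4426, in the part of the lists that mixes peaks with background. In the whole relaxed pooled list, 6 of the 7 genes had a summit within 500 bp, against 43.0% of all genes.

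E(spl)m5-HLH (FBgn0002631, 3R:26028854-26029735, minus strand) had a summit just below the IDR list, but outside the 500 bp window. This pooled summit, 1077 bp before its TSS, had signal 143 and rank 4675. The weakest IDR summit of the region, 1861 bp before Kaz-m1, had signal 154 and rank 4154. Replicate 1 placed a summit 1254 bp before E(spl)m5-HLH at rank 3719 and replicate 2 one 1079 bp before it at rank 3777. Both were among their strongest 4426, but the summit of replicate 3, 1077 bp before the TSS, ranked only 22888. Within 500 bp of this TSS the pooled rank was 20940. The nearest IDR summits to E(spl)m5-HLH, E(spl)mbeta-HLH, E(spl)mgamma-HLH and E(spl)m8-HLH were 7003, 3127, 2590 and 1429 bp away.

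**Figure D2:**
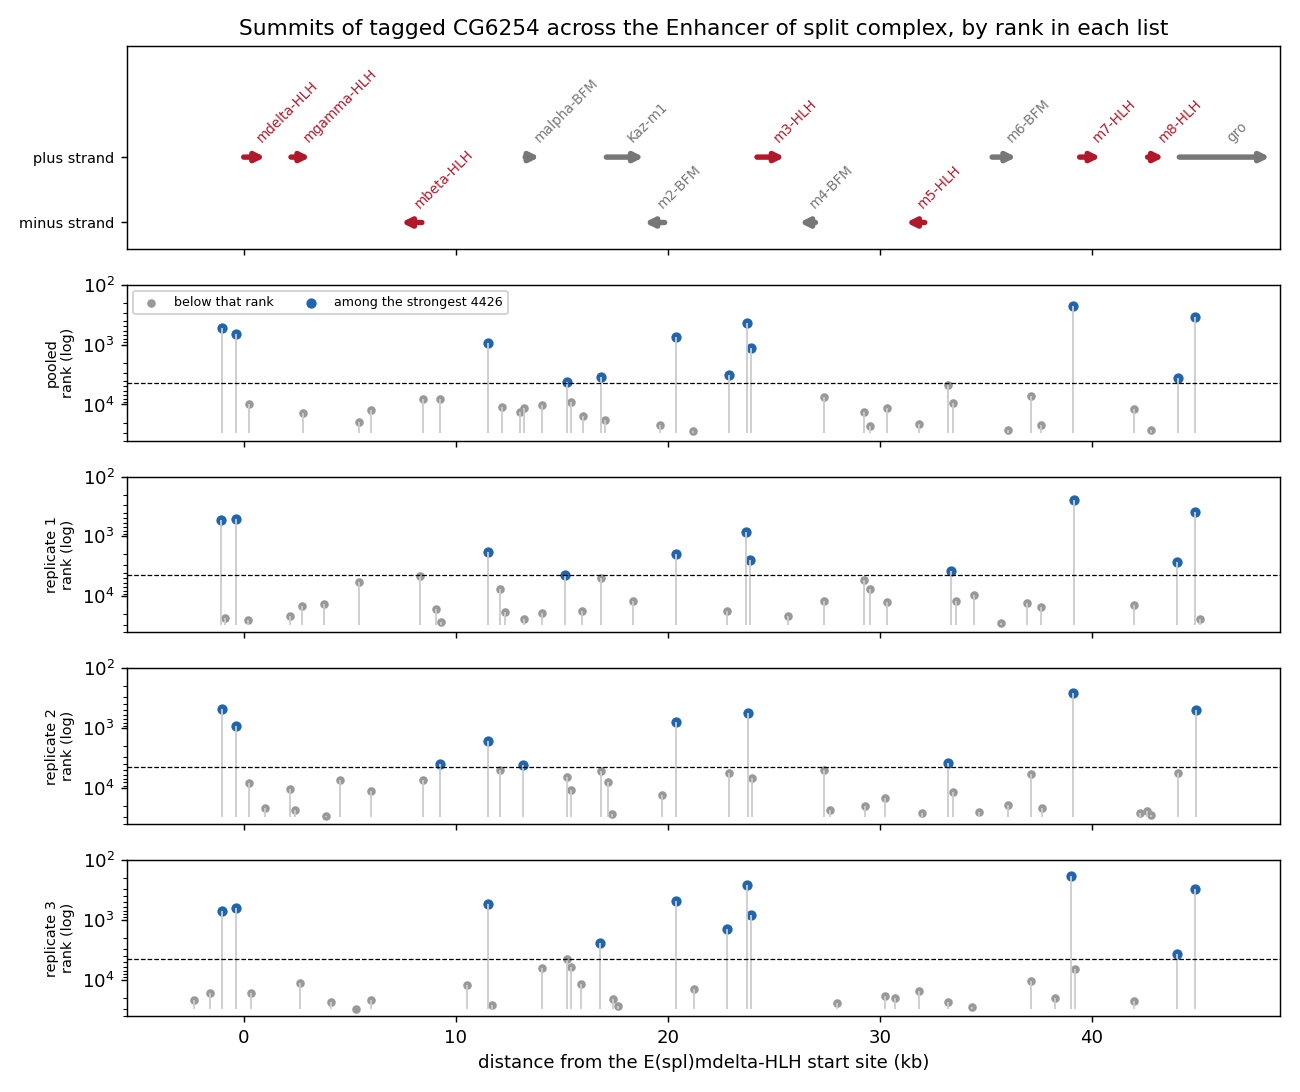
Summits across the Enhancer of split complex. The horizontal axis gives the distance from the E(spl)mdelta-HLH start site in kb, the top panel shows the bHLH genes in red and the other genes of the complex in grey (gro runs past the right end), and each panel under it gives the rank of every summit in 1 list on a log axis. Blue summits are among the strongest 4426 of their list (dashed line), and the stretches from E(spl)mgamma-HLH to E(spl)mbeta-HLH and from E(spl)m4-BFM to E(spl)m6-BFM hold no blue summit in the pooled list.

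Across the region there were 12 IDR summits, or 22.5 per 100 kb. Arm 3R as a whole had 3.34 per 100 kb, so that the region had 6.73 times the density of its arm. In the relaxed lists the region held 39 summits in the pool and 40, 41 and 37 in replicates 1, 2 and 3, and the pooled density was 3.44 times that of the arm. The strongest 4426 peaks of each replicate put 11, 10 and 11 summits in the region. The 12 summits were not evenly spaced: gaps between neighbours ran from 201 to 15178 bp. The widest gap ran from E(spl)m3-HLH to E(spl)m7-HLH, past E(spl)m4-BFM, E(spl)m5-HLH and E(spl)m6-BFM, and the next, of 11889 bp, ran from the start of E(spl)mdelta-HLH past E(spl)mgamma-HLH and E(spl)mbeta-HLH.

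Of the main arms' 2502 other windows of 53388 bp, 7 held at least 12 IDR summits, or 0.280%, and the median window held 1. The complex is also rich in genes, with 23 TSSs where the median window has 8. The 159 windows with at least as many TSSs held 3.12 IDR summits on average and 10 at most. Summits in the complex lay closer to protein-coding TSSs than in the 7 dense windows, which held between 4 and 20 TSSs each. The region was also drawn around gene starts, and the share of all IDR peaks near a TSS is not given here. Of the 12 summits of the complex, 8 were within 500 bp of a protein-coding TSS, whereas the 7 windows had between 0 and 2 such summits each.

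**Figure D3:**
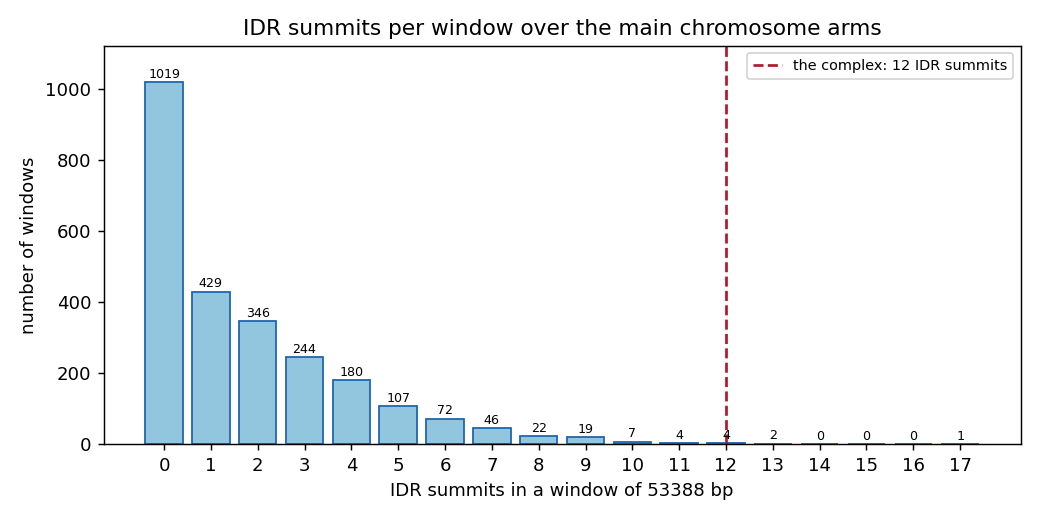
IDR summits in windows of 53388 bp over the 6 main chromosome arms. Bars give the number of windows with each number of IDR summits, and the dashed line marks the 12 of the complex. Of 2502 windows, 1019 hold none and 7 hold 12 or more.

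By position, 9 of the 12 IDR summits were intergenic, 2 lay in introns (of CG43116 and gro) and 1 in the exon of lncRNA:CR43644. None lay in the body of a bHLH gene. These genes make up 12.8% of the region, and 4 of the 39 pooled summits fell in them. With only 12 IDR summits, their absence from these bodies does not show avoidance. Of the 12, 11 lay upstream of the nearest protein-coding TSS. Shares of all IDR peaks by position are not given here, so these counts describe the region and set it apart from nothing. Of the 12 summits, 8 (66.7%) were matched, within 200 bp, by one of the 4426 strongest peaks in every replicate. The share of all IDR peaks so matched was 56.0%. Asking for a reciprocal overlap of 50% of the intervals left 5 of the 12. The 8 include both E(spl)m3-HLH promoter summits, which share 1 summit of replicate 2. In the whole relaxed lists all 12 were matched, with a median offset of 11.5 bp and at most 160 bp. The 4 that were not matched among the strongest peaks of every replicate were those before Kaz-m1, the one 1332 bp before E(spl)m3-HLH and the one just before gro, with IDR ranks from 3180 to 4154.

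**Figure D4:**
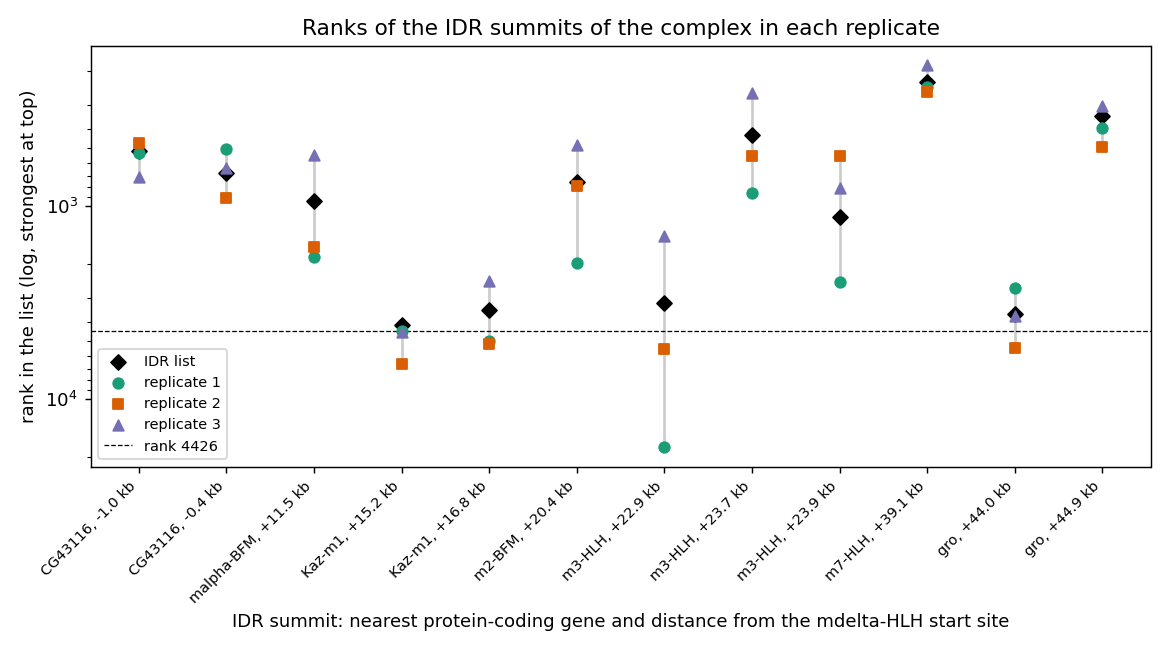
Ranks of the 12 IDR summits of the complex in the IDR list and in each replicate. The vertical axis is the rank on a log scale with the strongest at the top, the horizontal axis names the nearest protein-coding gene and the distance from the E(spl)mdelta-HLH start site, and grey lines span the replicates. The summit before E(spl)m7-HLH ranks between 186 and 255 in the replicates, and the one 22.9 kb along ranks between 1422 and 17779.

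Among the other genes of the complex, 2 of 6 had an IDR summit within 500 bp (33.3%, against 14.8% of all genes). The count was 1 of 6 in replicate 1 (16.7%, against 16.4% of all genes) and 2 of 6 in replicates 2 and 3. The gene gro, which encodes the corepressor, had 2. One lay 67 bp before its first TSS and 1429 bp after that of E(spl)m8-HLH, with signal 169 and rank 3603, and ranks of 2658, 5462 and 3711 in the replicates. The stronger one lay in an intron, 761 bp after the first TSS and 144 bp before an internal TSS. It had signal 644 and rank 341, with replicate ranks of 395, 497 and 302, which makes it the second strongest of the region after that of E(spl)m7-HLH. Kaz-m1 had a weak summit 265 bp before its TSS at rank 3440, with ranks of 4998, 5189 and 2441.

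Of the Bearded family genes of the complex, E(spl)m2-BFM and E(spl)malpha-BFM had strong summits farther out. E(spl)m2-BFM had one 549 bp before its TSS, just outside the 500 bp window, with signal 442 and rank 747. That summit ranked 1970, 787 and 481 in replicates 1, 2 and 3. A summit 1743 bp before E(spl)malpha-BFM had signal 387 and rank 940, and it ranked 1842, 1632 and 542. Both stood among the strongest 4426 of every replicate and higher in replicate 3 than in the other two. E(spl)m4-BFM and E(spl)m6-BFM had no IDR summit within 3019 and 3827 bp.

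Outside the complex, related genes were counted in the same way, against the 14.8% of all genes. Of 6 bHLH-Orange genes elsewhere, which encode repressors of the same family, 1 had an IDR summit within 500 bp (16.7%, near the share of all genes), and 2 had one among the strongest 4426 of replicate 2. The gene in the IDR list was hairy (listed as hry), a pair-rule gene, with a summit 48 bp after a TSS at rank 1843 and replicate ranks of 2605, 1432 and 3866. None of 4 Bearded family genes elsewhere (Brd, Ocho, Tom and BobA) and none of 10 genes for proneural bHLH proteins and their partners had one, and replicate 1 alone had a summit among its strongest 4426 at 1 of the 10. With so few genes in a list, these counts set no order between the lists.

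Of 21 genes of the Notch pathway, 6 had an IDR summit within 500 bp (28.6%, against 14.8% of all genes). The exact 95% interval of 11.3 to 52.2% includes the share of all genes, but these genes were also chosen by name, so it is no test. In replicate 3 alone the count was 4 of 21 (19.0%, against 12.6% of all genes). The strongest was at numb, whose product inhibits Notch in one daughter of an asymmetric division: the summit lay 143 bp before a TSS with signal 1623 and rank 80, above every summit of the complex, and ranked 90, 81 and 77 in the replicates. At aph-1, a subunit of the gamma-secretase that frees the intracellular part of Notch, the rank was 716. The gene neur, for the ubiquitin ligase Neuralized that activates Notch ligands, had rank 1209, and mam, for the Notch coactivator Mastermind, had rank 1357. CtBP, a corepressor, had rank 2543 and kuz, the protease that cuts Notch before gamma-secretase, rank 4251, and neither was among the strongest 4426 of replicate 3. Notch itself, its ligands Delta and Ser, and Su(H) had no IDR summit within 500 bp, the nearest being 1286 bp from Delta.

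**Figure D5:**
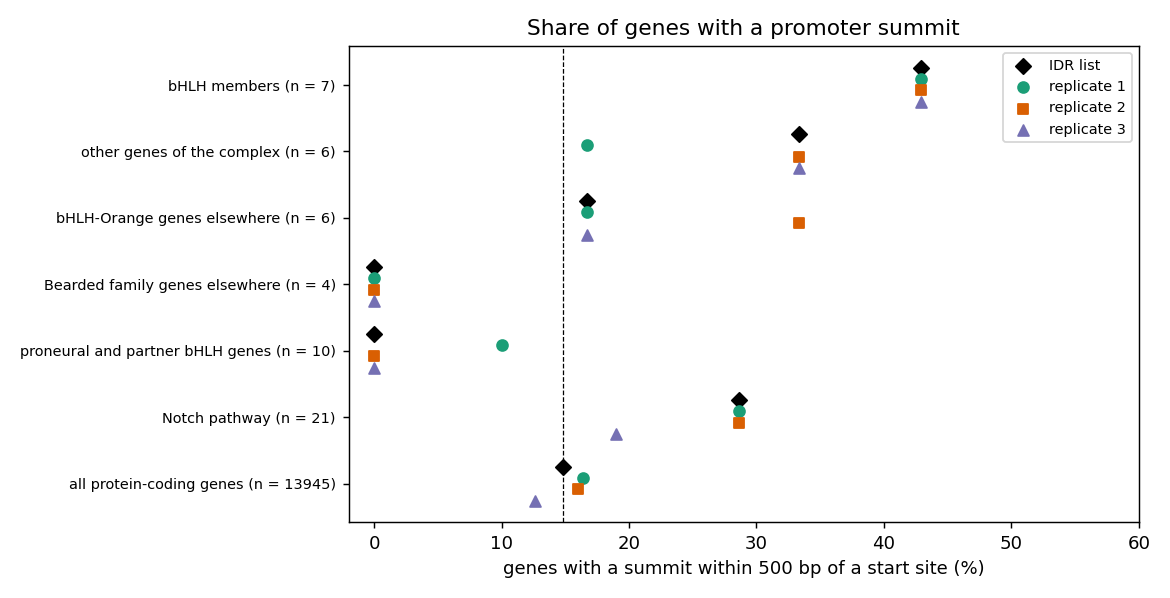
Share of genes with a summit within 500 bp of a start site, by gene list. Black diamonds stand for the IDR list, coloured symbols for the 4426 strongest peaks of each replicate, and the dashed line marks the 14.8% of all protein-coding genes. The 7 bHLH genes of the complex stand at 42.9% in the IDR list and in each replicate.

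Outside the complex, the genes whose promoter summits had ranks most like those of E(spl)m7-HLH were CG1142, Src64B and CG8320, by the sum over the 3 replicates of the absolute difference in log10 rank. CG1142 ranked 196, 256 and 180 (distance 0.108), Src64B, a Src family kinase, 259, 259 and 242 (0.151), and CG8320 250, 266 and 245 (0.152). CG8320 shares its peak with the neighbouring Pex11ab, which therefore has the same values.

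The words that Su(H) and bHLH proteins bind were not found in the 101 bases on the summits of the complex, where few IDR windows had them. In windows of 101 bases on the 12 IDR summits, none held either of the Su(H) words (2.12% of all IDR windows did), and none held any of the 3 E boxes or the related box CACGCG, which Hairy-type repressors bind (6.10% of all). Read to 100 bp on each side, 2 of the 12 held one of these boxes, against 14.5% of all IDR windows. None held CACNAG, the N box, which 9.44% of all IDR windows did. None held the promoter words TATCGATA and GGTCACAC either, which only 0.904% and 0.813% of all IDR windows did. TATAAA was in 4 of the 12 (33.3%, against 22.0% of all IDR windows), at the windows shown for E(spl)mdelta-HLH and for the proximal summit of E(spl)m3-HLH and at those in the CG43116 intron and before E(spl)m2-BFM. The mean GC content of the 12 windows was 32.2%, ranging from 20.8 to 51.5%, against 34.8% over all IDR windows and 44.3% over the region. The 250 bases before the TSS of each of the 7 bHLH genes had between 50.4% GC, at E(spl)m5-HLH, and 60% GC, at E(spl)m3-HLH. The 4 summit windows within 500 bp of a bHLH gene held 24.8 to 38.6% GC. The 250 bases before the genes beside them, E(spl)mdelta-HLH, E(spl)m3-HLH and E(spl)m7-HLH, held 52.4 to 60%. The proximal E(spl)m3-HLH window runs into the 250 bases before that gene. The same contrast over all genes with an IDR summit is not given here, so it is not shown to be particular to the complex. Not every summit lay in AT-rich DNA, since the window just before gro had 51.5% GC. No 36-base word within 200 bp of any of the 12 summits recurred elsewhere on the main arms.

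The promoters of the bHLH genes, read from 250 bases before to 50 after the TSS, held some of these words, in 300 bases where the summit windows had 101, so the counts are not comparable between them. Words bound by Su(H) were in 2 of 7, E(spl)m5-HLH and E(spl)m8-HLH, against 6.49% of all promoters. Within 500 bp on each side of the TSS they were in 4 of 7, against 19.7%. Neither E(spl)m5-HLH nor E(spl)m8-HLH had an IDR summit within 500 bp. The same held for 4 of the 7 bHLH genes, so these 2 genes set no relation between words and summits. E(spl)m8-HLH has GTGAGAA starting 223 bp and the complement of GTGGGAA 199 bp before its TSS, with CAGCTG at 152 bp. At least 1 of the 3 E boxes and CACGCG was found in 3 of 7 (E(spl)mdelta-HLH, E(spl)m7-HLH and E(spl)m8-HLH) against 27.8% of all promoters, and in 6 of 7 against 65.8% within 500 bp on each side. E(spl)m7-HLH has GCAGGTG at 231 and 133 bp and CACGTG at 44 bp before its TSS, and E(spl)mdelta-HLH has CACGTG at 181 bp. CACNAG, whose matches here overlap none of these words, was in 4 of 7 against 29.7%, and TATAAA was in 5 of 7 against 45.8%. A word is a match of letters and not a site shown to be used.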

How the data were processed

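Chromatin immunoprecipitation with sequencing was run on 3 biological replicates, numbered in the labels. Per the readme texts deposited with the lists, each replicate list was called on 1 replicate against a control alignment common to all, the pooled list on the 3 together, and the IDR list comes from all of them. Not given in the sources used here are the aligner, the peak caller, the IDR threshold and the depth. The signal is the value the authors' caller gave a peak, and the deposited −log10 q-value was not used. Lists on the dm3 build were not used here.

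A summit was the deposited start plus offset plus 1, placed relative to the TSSs of the Ensembl annotation (release 115) on the RefSeq copy of dm6. Genes were counted with a summit at most 500 bp from any of their TSSs, and replicate summits within 200 bp among the strongest 4426 were matched, the strongest being taken. Motifs were searched on both strands. No test was made, since 1 group holds no contrast. The named genes were the 7 members, every IDR summit of the region, list members with an IDR summit within 500 bp and the 3 genes most like the strongest member. The members and lists were chosen with earlier results of these data known. E(spl)m1, h, Her, nct and Dl were found as Kaz-m1, hry, Hesr, Nct and Delta, and BobB and BobC were not matched. Alternatives varied the window, the match, the list, the flanks and the replicates. The placement and motif search were tested on simulated data. Python 3.11.15, numpy 2.4.6, pandas 2.3.3, scipy 1.17.1 and matplotlib 3.10.9 were used.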

Additional observations from a re-analysis of the deposited data

How the results depend on the processing

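Of 51 alternatives over 10 results, 41 stayed within 1.5 times the reported count or value. The 500 bp window gave 3 of the 7 bHLH genes and 5 genes of the whole complex, against 14.8% of all genes. With a promoter window of 200 bp these were 0 and 1, against 9.91% of all genes, since the bHLH summits lie farther out. Asking for a TSS inside the IDR interval also gave 0 and 1, and the share of all genes at that setting is not given here. The relaxed pooled list gave 6 bHLH genes and 11 genes of the complex, against 43.0% of all genes. Matching by reciprocal overlap of 50% left 5 summits found in every replicate, against 8. Within 500 bp on each side of the TSS, words bound by Su(H) were in 4 bHLH promoters (19.7% of all) and the other boxes in 6 (65.8% of all), and within 100 bp of the summit boxes were in 2 windows (14.5% of all IDR windows). Leaving out each replicate in turn kept the IDR peaks matched in the others. This gave 3 bHLH genes and 4 genes of the complex each time, 8 to 9 summits and 15.0 to 16.9 per 100 kb. The whole list also shrank, from 4426 peaks to 2962, 2797 and 2912 without replicates 1, 2 and 3. The share of all genes and the density of the arm at these settings are not given here. The lower density is therefore not shown to be particular to the complex. The IDR list was itself made with the replicate left out, so this is no independent check. Windows shifted along by part of their length, chosen after seeing the data, again gave 7 with as many summits. No paired analysis was possible because there is 1 group. Depth is unknown, so absence from the lists is not absence of binding.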

Other observations

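The 7 windows with as many IDR summits as the complex differed from it in their genes. The densest, 3L:11371645-11425032, held 17 IDR summits with none within 500 bp of a protein-coding TSS, and its neighbour 3L:11318257-11371644 held 13, again with none. Their summits lay a median of 8244 and 6725 bp from the nearest protein-coding TSS. The window 3L:16016401-16069788, with 12 summits, covers Diap1, Mbs and Notum (an apoptosis inhibitor, a myosin phosphatase subunit and a secreted Wnt inhibitor), and 3R:16229953-16283340, also with 12, covers tara, gish and bor. The window 3L:18205309-18258696 held the highest ranked summit of the 7 windows, at rank 92.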
